A study of Homo sapiens with 20 samples.

Results

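The 8 interferon regulatory factor (IRF) genes IRF1, IRF2, IRF3, IRF4, IRF5, IRF7, IRF8 and IRF9 were examined, of 20007 protein-coding genes annotated in GENCODE 44. A ChIP-seq region was assigned to a gene when it overlapped the GRCh38 gene body or the 25 kb on either side of it, which took in 346 of the 562813 regions of 20 peak lists, 208 of them in myeloma lists. The lists form 10 pairs of an AU-15330 and a DMSO library, with 1 library per condition. In MM1.S and NCI-H929, established multiple myeloma lines, 4 pairs were made with antibodies to IRF4 and to POU2AF1, the B cell coactivator of POU2 factors. The other 6 pairs come from NCI-H526 and NCI-H1048, small cell lung cancer lines of the SCLC-P subtype, which resembles tuft cells, and serve as a control of another lineage. A POU2F3 antibody was used in both of these lines, and an HA antibody for HA-POU2F3 in both, for HA-POU2AF2 in NCI-H526 and for a protein that the labels do not name in NCI-H1048. The named HA proteins were lentiviral dTAG fusions in cells whose own copy of the gene had been knocked out. AU-15330 is a PROTAC that degrades SMARCA2 and SMARCA4, the ATPases of the mSWI/SNF chromatin remodelling complex, along with PBRM1. It was given at 1 µM. The labels put the exposure between 4 and 6 h, and the titles or legends that name a time give 6 h.

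IRF proteins share an amino-terminal DNA-binding domain that reads repeats of GAAA, the core of interferon-stimulated response elements. IRF4 directs plasma cell differentiation, is required by myeloma cells and is known to act on its own gene there. With its closest relative IRF8 it binds DNA weakly alone and often pairs with ETS or AP-1 factors on composite elements, whereas IRF3, IRF5 and IRF7 are switched on by pattern recognition receptors and IRF9 acts downstream of the interferon receptors.

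A pair of quantities is given for each region, both from the deposited lists. The fold is the enrichment of the summit over the local background as MACS2 wrote it, and the level is the summit pileup divided by the background pileup of the whole library, which scales for depth. The background pileups were close in all myeloma libraries, 1.94 to 2.28 with AU-15330 and 2.19 to 2.44 with DMSO, while the lists held 1983 to 20678 regions with AU-15330 and 29818 to 65176 with DMSO. Of 8 plasma cell genes (PRDM1, XBP1, SDC1, TNFRSF17, SLAMF7, CD38, JCHAIN and MZB1), 7 had a region within 2 kb of a start site in each myeloma DMSO list, against 0 to 3 in the SCLC-P DMSO lists. Of 8 tuft cell genes 3 to 5 had one in the myeloma DMSO lists, against 5 to 8 in the SCLC-P ones. Of 4 T cell genes 3 (CD3D, CD3E and CD8A) had one with the IRF4 antibody in NCI-H929. The other myeloma DMSO lists had 0 or 1 of them. Of 4 hepatocyte genes (ALB, APOA1, APOB and TTR) 1 or 2 had one in the myeloma DMSO lists, against 1 to 3 in the SCLC-P ones. No share over all genes stands beside these marker counts. Treatments were not tested against each other, since neither had a second library, and the exact 95% binomial intervals given with shares cover counting error only.

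The DNA under the sites that the results turn on is shown first, read from the GRCh38 genome on the strand of the IRF gene and away from annotated exons. Distances run from the RefSeq start site of the gene and are negative upstream. The first stretch is the end of the IRF4 promoter, which was overlapped by a region of all 4 myeloma DMSO lists and held none of the patterns searched.
IRF4 promoter, chr6:391539-391738, plus strand: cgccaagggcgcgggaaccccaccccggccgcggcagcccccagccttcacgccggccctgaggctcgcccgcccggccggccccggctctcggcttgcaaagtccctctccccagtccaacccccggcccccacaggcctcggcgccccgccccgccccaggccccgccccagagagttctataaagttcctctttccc
The next set holds sites bound by IRF4 with a match to the IRF pattern (GAAA, 2 bases of any kind, GAAA) or the ETS-IRF pattern (GGAA, 2 bases of any kind, GAAA) within 100 bases of a DMSO summit, on either strand and in capitals. It comprises the one match near IRF4 itself, at 41.4 kb, the IRF1 site of highest fold at -34.7 kb with that of highest level at 26.3 kb, the IRF2 promoter, an internal IRF2 promoter at 25.5 kb and an internal IRF5 promoter at 3.61 kb.
IRF4 41.4 kb, chr6:433101-433161, plus strand: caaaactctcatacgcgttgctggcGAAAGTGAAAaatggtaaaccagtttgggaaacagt
IRF1 -34.7 kb, chr5:132525412-132525472, minus strand: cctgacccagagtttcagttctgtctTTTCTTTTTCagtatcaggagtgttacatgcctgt
IRF1 26.3 kb, chr5:132464400-132464472, minus strand: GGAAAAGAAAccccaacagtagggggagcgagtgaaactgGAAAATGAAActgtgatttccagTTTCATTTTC
IRF2 -0.253 kb, chr4:184474773-184474833, minus strand: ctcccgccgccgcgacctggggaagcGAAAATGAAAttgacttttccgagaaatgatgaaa
IRF2 25.5 kb, chr4:184449051-184449095, minus strand: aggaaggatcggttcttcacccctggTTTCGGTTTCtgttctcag
IRF5 3.61 kb, chr7:128940612-128940671, plus strand: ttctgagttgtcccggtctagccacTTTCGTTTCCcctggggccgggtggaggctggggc
The last set shows POU2AF1 sites around the octamer core TTTGCAT, the element of POU2 factors, again on either strand and in capitals. These are an intergenic site upstream of IRF8 and, within the IRF3 window, the promoter of the neighbouring gene RRAS.
IRF8 -10.2 kb, chr16:85888900-85888960, plus strand: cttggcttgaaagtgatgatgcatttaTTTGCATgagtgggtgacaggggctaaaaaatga
IRF3 25.4 kb, chr19:49640438-49640498, minus strand: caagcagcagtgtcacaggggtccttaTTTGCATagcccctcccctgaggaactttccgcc

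IRF4 bound near nearly every IRF gene in DMSO-treated myeloma cells and near few of them after AU-15330, whereas POU2AF1 stayed called at most. With the IRF4 antibody 2 of 8 members had a region with AU-15330 in MM1.S cells (36.5% of all protein-coding genes), against 7 with DMSO (78.4%). In NCI-H929 cells 1 had one with AU-15330 (9.55%), against 8 with DMSO (90.5%). With the POU2AF1 antibody the numbers were 7 with AU-15330 (74.6%) and 8 with DMSO (83.9%) in MM1.S cells, and 5 with AU-15330 (71.9%) and 8 with DMSO (81.3%) in NCI-H929 cells. With 8 genes, these counts are near what the shares over all genes give. The median member had 2.5 and 5.5 IRF4 regions in the MM1.S and NCI-H929 DMSO lists, against 2 and 3 over all genes. The windows differ in size, being longest at IRF2 (138.9 kb) and IRF1 (118.3 kb) and shortest at IRF7 (53.4 kb).

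**Figure D1:**
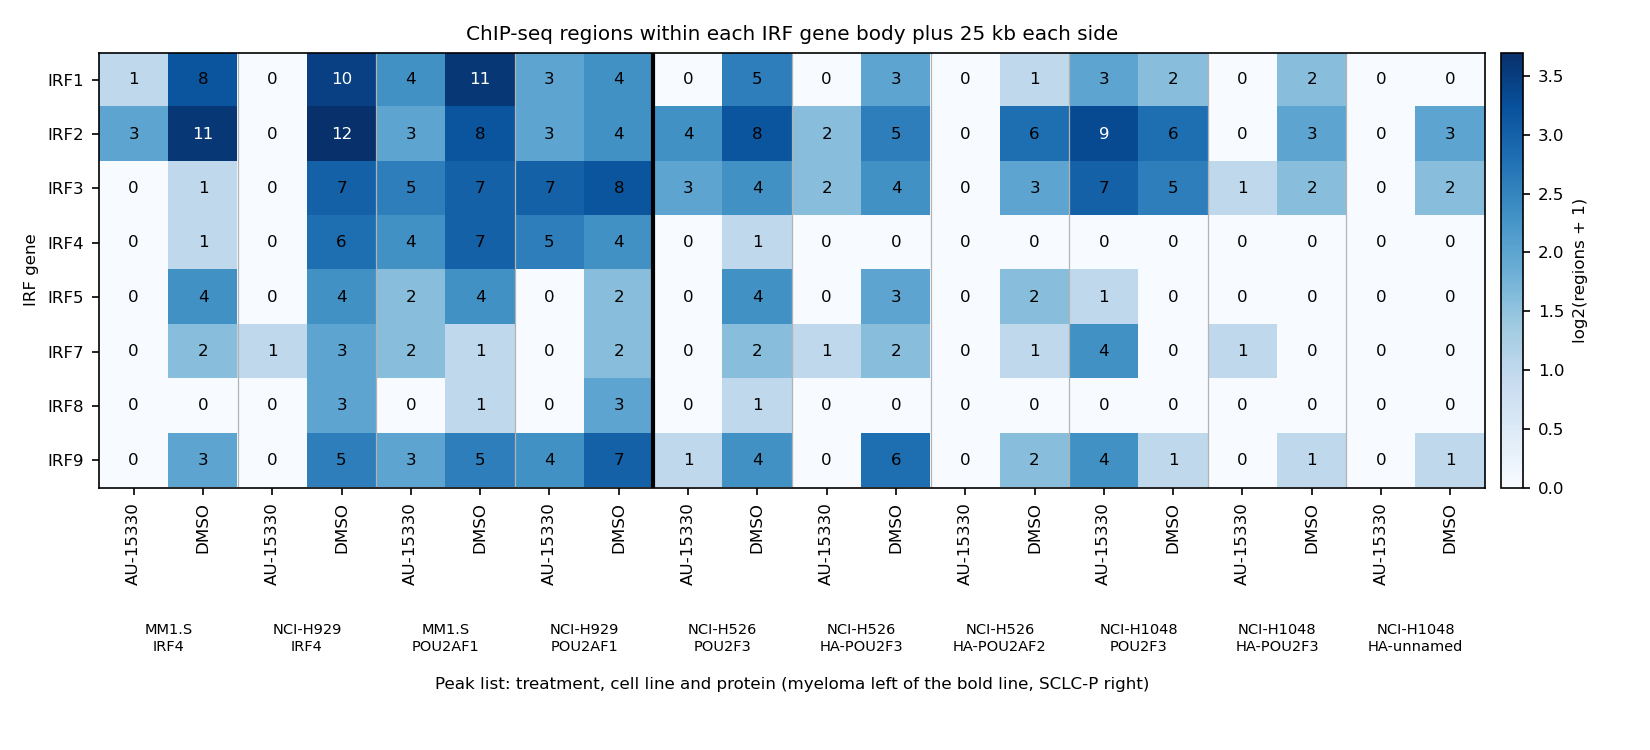
Number of ChIP-seq regions in the window of each IRF gene (rows) in each of the 20 peak lists (columns, AU-15330 left of DMSO in each pair), shaded by log2(regions + 1). The IRF4 columns are nearly empty with AU-15330, with 4 regions in MM1.S and 1 in NCI-H929, and the IRF4 and IRF8 rows hold 1 region each among the 12 SCLC-P lists.

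The IRF4 promoter had no IRF4 region in either myeloma line with AU-15330 and had one in both with DMSO. The site spans chr6:391270-393798, from upstream of the start into the first introns of IRF4 (ENSG00000137265.16, plus strand). With the IRF4 antibody there was no region there with AU-15330, against a level of 17.3 (fold 4.63) in MM1.S and 28.2 (fold 5.68) in NCI-H929 with DMSO. At unchanged occupancy the summit of each would have passed the threshold of the AU-15330 list with a chance of 100%. POU2AF1 remained called at this site, at levels of 13.4 with AU-15330 and 18.7 with DMSO in MM1.S cells. In NCI-H929 cells the POU2AF1 levels were 20.1 with AU-15330 and 30.4 with DMSO. The promoter site was the only one of 15 myeloma sites in the IRF4 window present in all 4 DMSO lists, and after AU-15330 it carried POU2AF1 regions alone. Each outcome was the more common one at promoters of these lists. Over all promoter regions IRF4 was retained at 19.2% in MM1.S and 1.82% in NCI-H929, and POU2AF1 at 65.8% and 71.9%.

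**Figure D2:**
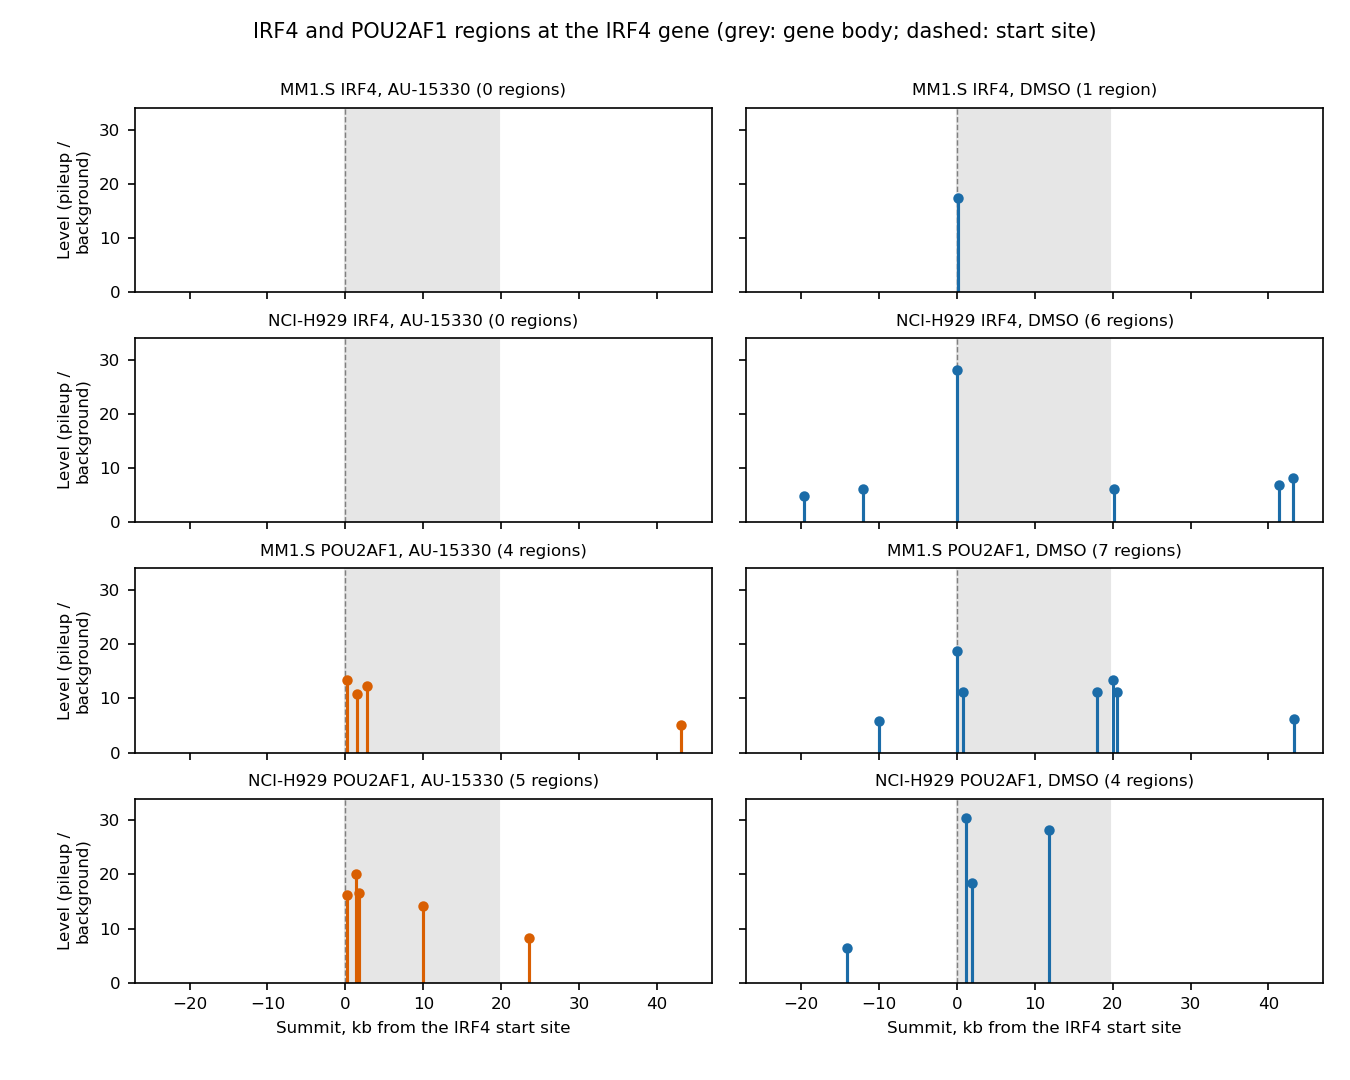
Level of every called region (height, summit pileup over library background) against the distance of its summit from the IRF4 start site in kb, for the 4 myeloma pairs, with AU-15330 on the left and DMSO on the right. No IRF4 region is called with AU-15330, where the promoter stood at 17.3 and 28.2 with DMSO, and POU2AF1 regions remain around the start site at up to 13.4 in MM1.S and 20.1 in NCI-H929.

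Beyond the promoter, IRF4 regions around its own gene were found in NCI-H929 cells only and were weak. That DMSO list had 5 more, at -19.6, -12.1, 20.2, 41.4 and 43.2 kb, with levels of 4.91, 6.13, 6.13, 6.95 and 8.18, and the AU-15330 list had none. These lie below the median level of the list, 9.0, and the chance that they would be called with AU-15330 at unchanged occupancy was 39.7% to 95.1%, so their absence is less certain than that of the promoter. The MM1.S IRF4 list had no second region in the window with either treatment.
POU2AF1 regions remained in this window with AU-15330, and those lost and gained lay at different places in the lines. In MM1.S cells it had 4 regions with AU-15330, at 0.205, 1.54, 2.80 and 43.1 kb with levels of 13.4, 10.8, 12.4 and 5.15. With DMSO it had 7, at -10.0, 0.030, 0.742, 18.0, 20.1, 20.5 and 43.3 kb with levels of 5.79, 18.7, 11.1, 11.1, 13.4, 11.1 and 6.24. Of the 7 DMSO regions 2 were retained, at the start and at 43.3 kb, and 5 were lost, 3 of them around the end of the gene, while the regions at 1.54 and 2.80 kb were gained. For the 5 lost, the chance of a call with AU-15330 at unchanged occupancy was 58.4% to 93.5%, so their absence is uncertain too. The lost region at 0.742 kb (chr6:392217-392519) lay beside the AU-15330 region kept at the start (chr6:391664-392178).
In NCI-H929 cells POU2AF1 had 5 regions with AU-15330, at 0.143, 1.36, 1.77, 9.95 and 23.6 kb with levels of 16.2, 20.1, 16.7, 14.2 and 8.33. With DMSO it had 4, at -14.1, 1.14, 1.9 and 11.8 kb with levels of 6.42, 30.4, 18.4 and 28.2. The regions at 1.14 and 1.9 kb were retained, and the intronic one at 11.8 kb was lost. Over the whole POU2AF1 lists 33.7% of DMSO regions were retained in MM1.S and 38.4% in NCI-H929, and 38.9% and 31.2% of AU-15330 regions were gained.

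The local background of the POU2AF1 regions was raised over the IRF4 gene, and the fold is taken over this background. The peak-calling command in the study's methods names no control library, so this background may include reads of the called regions themselves. In NCI-H929 cells the local background of these regions reached 4.95 times that of the library with AU-15330 and 8.81 times with DMSO, the second above 99.8% of all regions of its list, and in MM1.S cells it reached 3.92 times with AU-15330 and 4.79 times with DMSO. The medians over the 4 lists lie between 1.38 and 1.5. The highest POU2AF1 folds in the window were 3.74 with AU-15330 and 3.83 with DMSO in MM1.S, and 3.90 with AU-15330 and 3.61 with DMSO in NCI-H929. IRF4 had a raised local background at its promoter too, 3.39 times in MM1.S and 4.63 times in NCI-H929 with DMSO.

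IRF8, the closest paralogue of IRF4 and a regulator of myeloid and B cell development, had 4 myeloma sites, none of them shared between the lines. All 4 were lost. No list had a region in the IRF8 window with AU-15330. Over the NCI-H929 lists 0.595% of IRF4 and 16.1% of POU2AF1 regions away from promoters were retained. Over the MM1.S list 65.8% of POU2AF1 promoter regions were retained. With so few sites, the loss at IRF8 could not be told from that of the lists. With DMSO in NCI-H929 cells IRF4 and POU2AF1 were both at -18.8 kb (IRF4 level 15.5, fold 10.3, POU2AF1 level 6.85), at -10.2 kb (10.6 and 15.4, POU2AF1 fold 9.81) and at 37.3 kb (8.59 and 5.56), all intergenic. The octamer core printed above lies in the site at -10.2 kb, where POU2AF1 had its highest fold of any NCI-H929 DMSO region in the 8 windows, and the site at -18.8 kb holds the AP-1 pattern. In MM1.S cells the only region was a POU2AF1 one at 3.72 kb, at an internal promoter of IRF8, with a level of 11.1, and IRF8 was the one member without an IRF4 region there.

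IRF1, an activator induced by interferon gamma, and IRF2, which competes with it for the same elements, had the most IRF4 regions, in the longest windows, and IRF1 had the highest. At IRF1 the IRF4 list held 1 region with AU-15330 and 8 with DMSO in MM1.S cells, and 0 with AU-15330 and 10 with DMSO in NCI-H929 cells. The strongest by fold, at -34.7 kb in chr5:132525066-132525835, had IRF4 levels of 37.4 (fold 11.5) in MM1.S and 47.9 (fold 15.1) in NCI-H929 with DMSO. It had no region of either protein with AU-15330, and its POU2AF1 levels with DMSO were 10.3 and 8.13. These folds were the highest of IRF4 at any member in each line. The site lies in an intron of ENSG00000283782, a gene model that overlaps IRF1, and is in the window only because the GENCODE body of IRF1 is longer than that of RefSeq, as are the sites at -30.2, 63.8, 64.9 and 71.0 kb.
The site at 26.3 kb, chr5:132464191-132464873, carries 3 matches to the IRF or ETS-IRF pattern in the stretch printed above. IRF4 was retained there in MM1.S cells, at a level of 10.97 with AU-15330 against 22.3 with DMSO. In NCI-H929 cells it was not called with AU-15330, against 54.8 with DMSO, the highest level of any site of the 8 genes. At the IRF1 promoter the proteins parted, each with the outcome more common at promoters of its list. IRF4 levels of 9.12 in MM1.S and 10.6 in NCI-H929 with DMSO were lost, while POU2AF1 was retained at 17.5 with AU-15330 and 24.1 with DMSO in MM1.S, and at 12.2 with AU-15330 and 15.8 with DMSO in NCI-H929. An IRF1 site at -6.22 kb was also at an annotated promoter. It had IRF4 levels of 10.9 in MM1.S and 14.7 in NCI-H929 with DMSO only, and POU2AF1 levels of 8.75 in MM1.S and 8.33 in NCI-H929 with AU-15330 only. In MM1.S this AU-15330 region (chr5:132496243-132496594) lay beside a separate POU2AF1 region with DMSO (chr5:132495982-132496213, level 10.7), which was called lost. The MM1.S calls there thus do not show POU2AF1 binding with AU-15330 alone.
At IRF2 the IRF4 list held 3 regions with AU-15330 and 11 with DMSO in MM1.S cells, all 3 overlapping a DMSO region. They were the promoter (level 10.5 with AU-15330, 19.6 with DMSO), an intronic site at 53.2 kb (10.5 with AU-15330, 16.4 with DMSO) and a site past the gene end at 90.3 kb (9.65 with AU-15330, 14.1 with DMSO). In NCI-H929 cells there were 0 with AU-15330 and 12 with DMSO, the promoter having a level of 29.0 with DMSO. The sites at 64.5 kb (22.1), 57.2 kb (23.3) and 25.5 kb (19.6) were likewise lost in that line. POU2AF1 stayed at the IRF2 promoter, at 11.8 with AU-15330 and 18.3 with DMSO in MM1.S and at 20.6 with AU-15330 and 20.5 with DMSO in NCI-H929, and at 90.3 kb in both lines. The IRF2 promoter and the 90.3 kb site were the only sites of any member where MM1.S kept both proteins.

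Among the members activated by innate signalling, IRF3 retained 5 of 7 POU2AF1 regions in MM1.S and 6 of 8 in NCI-H929, beside 65.8% and 71.9% of all promoter regions of these lists. IRF3 and IRF5 lost their IRF4 regions in both lines, as did IRF4 and IRF9. Over the whole IRF4 lists only 9.76% of DMSO regions in MM1.S and 0.888% in NCI-H929 were retained. With so few regions per gene, losing all of them does not set these members apart. IRF3, expressed in most cells and a direct activator of type I interferon genes, lies in a dense stretch of chr19 with ADM5, BCL2L12, PRMT1, RRAS and SCAF1, and 10 of its 11 sites are at promoters of these genes or its own. POU2AF1 had 5 regions with AU-15330 and 7 with DMSO in MM1.S, and 7 with AU-15330 and 8 with DMSO in NCI-H929. At the promoter that IRF3 shares with BCL2L12 its levels were 17.5 with AU-15330 and 26.3 with DMSO in MM1.S, and 26.0 with AU-15330 and 21.4 with DMSO in NCI-H929. At the RRAS promoter, the octamer site printed above, they were 21.1 with AU-15330 and 25.9 with DMSO in MM1.S, and 26.5 with AU-15330 and 17.1 with DMSO in NCI-H929. In NCI-H929 both levels were higher with AU-15330 than with DMSO, and in MM1.S both were lower. IRF4 had no region in the window with AU-15330, against 1 in MM1.S and 7 in NCI-H929 with DMSO. The highest, at 1.17 kb within IRF3, had levels of 9.58 in MM1.S and 12.7 in NCI-H929.
IRF5, a mediator of Toll-like receptor signalling in B cells and myeloid cells, had 4 IRF4 regions with DMSO in each line and none with AU-15330. An internal promoter at 3.63 kb, chr7:128940342-128940834, had IRF4 levels of 28.7 in MM1.S and 20.5 in NCI-H929 and POU2AF1 levels of 12.5 and 6.42 with DMSO, and no region of either protein with AU-15330. It had the highest IRF4 fold of the window in MM1.S, 7.52. In NCI-H929 the highest, 8.94, was at 18.0 kb in an exon of TNPO3. POU2AF1 held 2 regions with AU-15330 and 4 with DMSO in MM1.S cells, those retained being at 0.872 kb (10.8 with AU-15330, 13.8 with DMSO) and in the TNPO3 exon (7.21 with AU-15330, 12.9 with DMSO). In NCI-H929 it had 0 with AU-15330 and 2 with DMSO.
IRF7, the interferon-inducible amplifier of type I interferon production, had in its window the single IRF4 region kept in NCI-H929. That site, at -13.3 kb in chr11:628957-629702, is intergenic and nearest to a start of SCT. Its level was 6.27 with AU-15330 and 27.8 with DMSO. The ratio of AU-15330 to DMSO was 0.226, against a median of 0.491 over the retained regions of that list. At the IRF7 promoter IRF4 levels of 14.1 in MM1.S and 17.2 in NCI-H929 with DMSO were lost. POU2AF1 there was 10.8 with AU-15330 and 9.81 with DMSO in MM1.S, with a further region of 5.66 gained at -0.806 kb, whereas in NCI-H929 it was not called with AU-15330, against 15.8 with DMSO.

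IRF9, a DNA-binding mediator of the type I interferon response, had 3 sites in all 4 myeloma DMSO lists, all at promoters. At its own promoter IRF4 levels of 6.38 in MM1.S and 11.5 in NCI-H929 with DMSO were lost. POU2AF1 was higher with AU-15330 in MM1.S, at 9.27 against 6.24 with DMSO, and lower in NCI-H929, at 8.82 against 12.4 with DMSO. The others were the promoters of EMC9 at -19.7 kb and IPO4 at 27.6 kb, where IRF4 was likewise lost in both lines. At EMC9 POU2AF1 was retained in both, at 5.15 with AU-15330 and 8.47 with DMSO in MM1.S and at 9.31 with AU-15330 and 14.1 with DMSO in NCI-H929. At IPO4 it was retained in MM1.S only, at 6.69 with AU-15330 and 11.1 with DMSO. The window holds 7 further genes, so that several of its regions stand nearer to PSME1, RNF31 or another neighbour than to IRF9.

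Over the 8 windows the DMSO regions were retained about as often as in the whole lists. For IRF4 this was 4 of 30 in MM1.S cells (13.3%, interval 3.76% to 30.7%, whole list 9.76%) and 1 of 50 in NCI-H929 cells (2.00%, interval 0.0506% to 10.6%, whole list 0.888%). For POU2AF1 it was 19 of 44 in MM1.S (43.2%, interval 28.3% to 59.0%, whole list 33.7%) and 15 of 34 in NCI-H929 (44.1%, interval 27.2% to 62.1%, whole list 38.4%). All 4 intervals include the share of the list, so that the loss at the IRF genes could not be told from that over the genome at these counts. Of the IRF4 regions of the members with AU-15330, 0 of 4 were gained in MM1.S (list 49.9%) and 0 of 1 in NCI-H929 (list 70.7%). Of the POU2AF1 regions 4 of 23 were gained in MM1.S (list 38.9%) and 6 of 22 in NCI-H929 (list 31.2%). At unchanged occupancy, taking the DMSO pileup as the true level, 90.6% to 94.5% of these regions would have been called with AU-15330 (whole lists 88.9% to 91.1%). These regions were picked for passing the DMSO threshold, which can make such chances too high. A weaker precipitation in the AU-15330 library was not tested. The other 7 members retained 4 of 29 IRF4 regions in MM1.S and 1 of 44 in NCI-H929, against 0 of 1 and 0 of 6 at IRF4 itself.
Where a region was retained, the level was lower with AU-15330 at 4 of 4 IRF4 regions in MM1.S, with a median ratio of 0.589 (list 0.733, with 83.7% lower). For POU2AF1 it was lower at 17 of 19 in MM1.S, with a median of 0.735 (list 0.809, with 76.2% lower), and at 8 of 15 in NCI-H929, with a median of 0.905 (list 0.979, with 52.8% lower). The highest ratios were 1.49 and 1.55, and the AU-15330 level is the highest of the regions that overlap. POU2AF1 regions with a summit within 1 kb of a transcript start were retained in 13 of 21 cases in MM1.S (list 65.8%) and 11 of 19 in NCI-H929 (list 71.9%), against 6 of 23 (list 15.8%) and 4 of 15 (list 16.1%) elsewhere. For POU2AF1 the members split as the lists do. For IRF4 in MM1.S it was 1 of 12 at promoters (list 19.2%) and 3 of 18 elsewhere (list 5.42%).

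**Figure D3:**
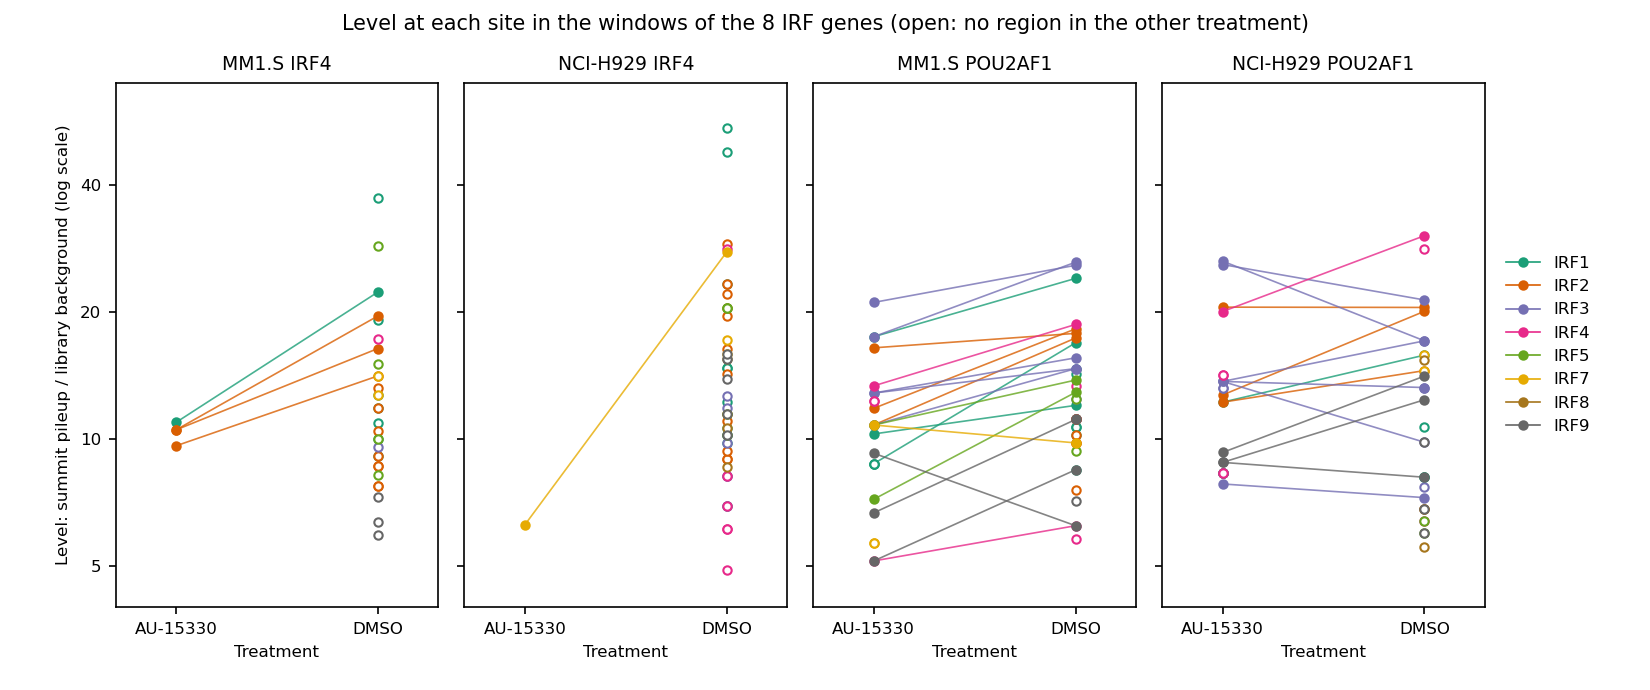
Level at each of the merged myeloma sites of the 8 IRF genes with AU-15330 (left) and DMSO (right), on a log axis, by antibody and line, with lines joining sites called under both treatments and open circles for sites called under 1 only. The IRF4 panels hold mostly sites called with DMSO only, and the POU2AF1 lines fall in MM1.S at most sites (median ratio 0.735) and go both ways in NCI-H929, where 7 of the 14 joined sites are lower and 7 higher with AU-15330 (ratios 0.633 to 1.55).

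**Figure D4:**
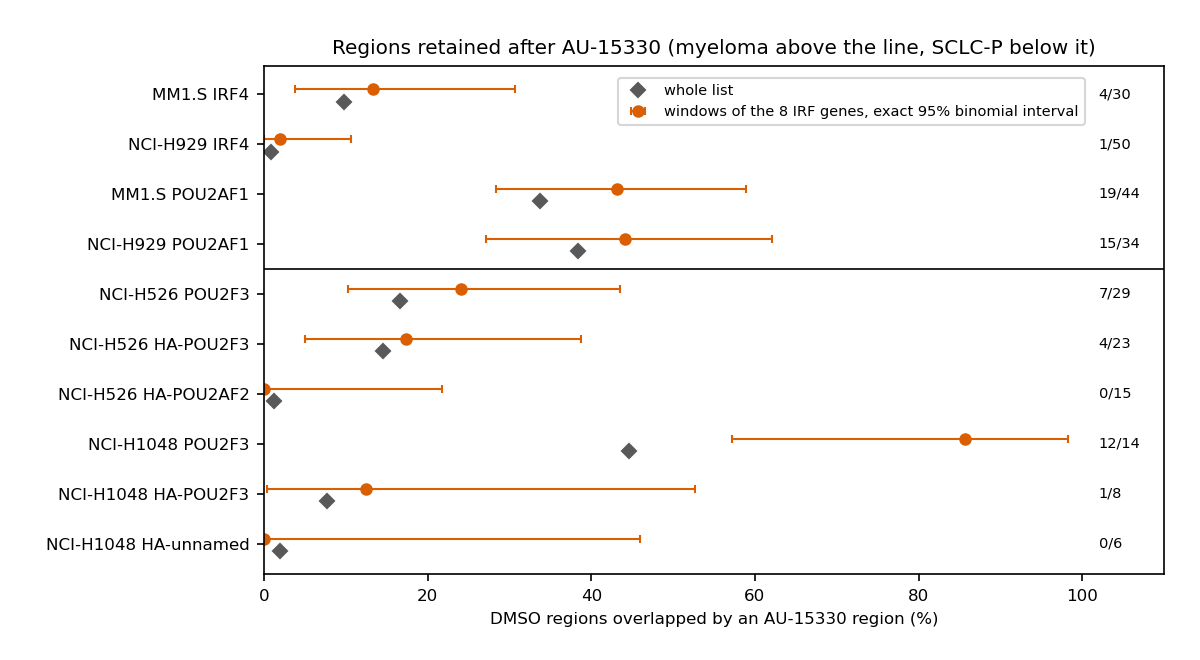
Share of DMSO regions overlapped by an AU-15330 region in the windows of the 8 IRF genes (circles, with exact 95% binomial intervals and counts at the right) and over the whole list (diamonds), for the 10 pairs. The interval includes the whole list's share in 9 pairs and lies above it for POU2F3 in NCI-H1048 cells (12 of 14, list 44.6%).

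IRF4 and POU2AF1 regions overlapped often at the IRF genes. With DMSO a POU2AF1 region overlapped 20 of 30 IRF4 regions in MM1.S (66.7%, interval 47.2% to 82.7%, whole list 55.6%) and 25 of 50 in NCI-H929 (50%, interval 35.5% to 64.5%, whole list 32.6%). The MM1.S interval includes the share of its list with these windows. It lies above that share at 50 kb on each side (29 of 40, interval 56.1% to 85.4%) and at 100 kb (49 of 66, interval 62.0% to 84.2%). The NCI-H929 interval lies above the whole list with these windows and this overlap rule, and with wider windows. It includes the share of the list with the gene body only (11 of 25), 10 kb on each side (13 of 31), at least 50% of the region covered (38.0%, list 25.4%), summits within 200 bases (28.0%, list 26.4%) or a −log10 q of at least 5 in both lists (45.0%, list 30.5%). With AU-15330 the overlap was 2 of 4 in MM1.S (45.5% of the list) and 0 of 1 in NCI-H929 (23.6% of the list). Of POU2AF1 regions, IRF4 overlapped 2 of 23 with AU-15330 (list 14.1%) and 20 of 44 with DMSO (list 48.8%) in MM1.S, and 0 of 22 with AU-15330 (list 2.76%) and 26 of 34 with DMSO (list 71.3%) in NCI-H929. All 5 retained IRF4 regions came from those that POU2AF1 had overlapped with DMSO, 4 of 20 in MM1.S and 1 of 25 in NCI-H929, against 0 of 10 and 0 of 25 of those without it. The whole lists show the same split, at 16.1% against 1.84% in MM1.S and 2.32% against 0.198% in NCI-H929.
Merged over the 8 myeloma lists there were 77 sites, and 11 of them were in all 4 DMSO lists. IRF9 and IRF2 had 3 each, IRF1 had 2, IRF4, IRF5 and IRF7 had 1 each, and IRF3 and IRF8 had none. Of the 11 sites, 8 were at a promoter. The IRF4 antibody bound 57 of the sites with DMSO in at least 1 line and 23 in both lines. The 5 sites found only with AU-15330 were all POU2AF1 sites, 3 of them in the IRF4 window. No share over the genome stands beside these counts of merged sites, so they describe the 8 windows only.

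In SCLC-P cells with DMSO IRF2 had 31 regions over the 6 lists, IRF3 20, IRF9 15, IRF1 13, IRF5 9 and IRF7 5, and IRF4 and IRF8 had 1 each. In NCI-H526 cells 3 members had a POU2F3 region with AU-15330 (48.6% of all genes) and 8 with DMSO (89.7%), 3 an HA-POU2F3 region with AU-15330 (53.2%) and 6 with DMSO (84.4%), and 0 an HA-POU2AF2 region with AU-15330 (10.6%) and 6 with DMSO (74.2%). In NCI-H1048 cells the numbers were 6 with AU-15330 (88.8%) and 4 with DMSO (76.5%) for POU2F3, 2 with AU-15330 (26.9%) and 4 with DMSO (51.5%) for HA-POU2F3, and 0 with AU-15330 (5.44%) and 3 with DMSO (51.3%) for the unnamed HA protein. Of the 77 myeloma sites, 22 overlapped an SCLC-P region, where 25.1% of all myeloma sites merged in the same way over the genome did. At promoters it was 16 of 29 (68.3% over the genome) and elsewhere 6 of 48 (15.7% over the genome). By member it was 6 of 11 at IRF3, 5 of 6 at IRF9, 0 of 15 at IRF4 and 0 of 4 at IRF8. These members differ in promoter content, with 10 sites at promoters at IRF3, 5 at IRF9, 1 at IRF4 and 1 at IRF8. In the 12 lists IRF4 and IRF8 had 1 region each, both with the POU2F3 antibody in DMSO-treated NCI-H526 cells, the list with the most regions. The IRF4 one lay at 17.1 kb in an exon with a level of 4.71. With AU-15330 IRF2 had 15 regions over the SCLC-P lists and IRF3 had 13.
Retention in SCLC-P cells varied by antibody. It was 7 of 29 for POU2F3 in NCI-H526 (list 16.7%), 4 of 23 for HA-POU2F3 (list 14.6%) and 0 of 15 for HA-POU2AF2 (list 1.26%). In NCI-H1048 it was 1 of 8 for HA-POU2F3 (list 7.72%) and 0 of 6 for the unnamed HA protein (list 1.95%). With the POU2F3 antibody in NCI-H1048 cells it was 12 of 14 (85.7%, interval 57.2% to 98.2%, list 44.6%), with 16 of 28 AU-15330 regions gained (list 67.3%). That AU-15330 list was longer than its DMSO list, at 51408 against 38036 regions. Gained regions numbered 1 of 8 for POU2F3 (list 15.3%), 1 of 5 for HA-POU2F3 (list 41.9%) in NCI-H526, and 1 of 2 for HA-POU2F3 (list 73.7%) in NCI-H1048. HA-POU2AF2 (list 83.8%) and the unnamed HA protein (list 72%) had no AU-15330 region at the members. At promoters of the NCI-H1048 POU2F3 pair 7 of 8 were retained (list 86.5%) and elsewhere 5 of 6 (list 33.3%).

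Sequence patterns near the summits were searched on both strands and are a description of letters only. The IRF pattern was within 100 bases of the summit in 6 of 30 IRF4 DMSO regions in MM1.S (20%, interval 7.71% to 38.6%, list 10.9%) and 9 of 50 in NCI-H929 (18.0%, interval 8.58% to 31.4%, list 11.2%). The ETS-IRF pattern, which can overlap the first, was in 4 of 30 (list 6.62%) and 3 of 50 (list 4.89%). The octamer core TTTGCAT was in 5 of 44 POU2AF1 regions in MM1.S (list 7.29%) and 5 of 34 in NCI-H929 (list 7.99%). It was in 0 of 30 IRF4 regions in MM1.S (list 4.59%) and 4 of 50 in NCI-H929 (list 5.18%). Each of these intervals includes the share of the list. The AP-1 pattern (TGAGTCA or TGACTCA), RUNX (AACCACA) and E-box (CAGCTG) were likewise searched. They were in 2 (list 5.38%), 3 (list 10.4%) and 3 (list 13.5%) IRF4 regions of MM1.S and in 3 (list 10.3%), 6 (list 12.8%) and 8 (list 15.4%) of NCI-H929.

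Fewer of the genes that act with the IRF factors had an IRF4 region with AU-15330 than with DMSO, as was so of all genes. Of 36 pathway genes, 20 had an IRF4 region with AU-15330 and 31 with DMSO in MM1.S, and 3 with AU-15330 and 36 with DMSO in NCI-H929. POU2AF1 regions were near 28 with AU-15330 and 32 with DMSO in MM1.S, and near 30 with each treatment in NCI-H929. These stand beside the shares over all genes given above, 36.5% and 78.4% for MM1.S IRF4, and 9.55% and 90.5% for NCI-H929 IRF4.
Among receptors and kinases of interferon signalling, 6 of 7 had an IRF4 region with AU-15330 and 7 of 7 with DMSO in MM1.S, and 1 of 7 with AU-15330 and 7 of 7 with DMSO in NCI-H929. JAK1, IFNAR2, IFNGR2, IFNAR1, POU2AF1 and CGAS are named here for having the most IRF4 regions with DMSO among the pathway genes. A fall from such counts is partly set by that choice. JAK1, a kinase of both interferon receptors, had the most. It had 1 with AU-15330 and 9 with DMSO in MM1.S, and 0 with AU-15330 and 14 with DMSO in NCI-H929. In MM1.S IFNAR2 had 0 with AU-15330 and 5 with DMSO, IFNGR2 had 1 with AU-15330 and 7 with DMSO, and IFNAR1 had 1 with AU-15330 and 6 with DMSO. In NCI-H929 none of them had one with AU-15330, against 8, 6 and 5 with DMSO. These encode chains of the type I and interferon gamma receptors. The counts of the other 3 were not lower with AU-15330 in MM1.S, being 3 with each treatment at TYK2, 1 with each at IFNGR1, and 2 with AU-15330 and 1 with DMSO at JAK2. The gene of POU2AF1 itself had 2 IRF4 regions with AU-15330 and 6 with DMSO in MM1.S, and 0 with AU-15330 and 14 with DMSO in NCI-H929. Its own protein had 3 regions there with AU-15330 and 7 with DMSO in MM1.S, and 3 with AU-15330 and 8 with DMSO in NCI-H929. CGAS, the cytosolic DNA sensor upstream of IRF3, had 1 IRF4 region with AU-15330 and 7 with DMSO in MM1.S, and 0 with AU-15330 and 9 with DMSO in NCI-H929.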

How the data were processed

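ChIP-seq reads were processed by the authors, per the study's methods, by trimming with Trimmomatic (0.39), alignment to GRCh38 with BWA, filtering with SAMtools and Picard, and peak calling with MACS2 at a q-value of 0.05, after which blacklisted regions were removed. The deposited columns hold the fold enrichment of the summit over local background (a ratio), −log10 p and −log10 q values, a score and, as other values, the summit offset. The unnamed HA pair has no offset, so that region midpoints stood in and no level is given. Only the autosomes and the sex chromosomes were used (0.283% to 12.4% of each list lay elsewhere).

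Whole-number pileups were recovered from the deposited fold and p-value within a tolerance of 0.002 for every region of 18 lists (2.60% and 6.03% in the unnamed HA pair), and the recovery was tested on simulated data. Read totals were not used, so depth is given by the background pileups. Retained means that at least 1 base of a DMSO region was covered by a region called after AU-15330 in the matched library, and gained means that an AU-15330 region overlapped none in DMSO. The chance of a call at unchanged occupancy is the Poisson probability of reaching the lowest p of the AU-15330 list. Promoters lie within 1 kb of a protein-coding transcript start. The text names every myeloma region at IRF4 and, at the other members, the strongest of each DMSO list and those shared by both proteins and lines, and further sites chosen after their values were seen. The members, pathway genes and markers were chosen with earlier results of these data known. Alternatives covered window width, overlap rule, q threshold, equal numbers of regions and RefSeq gene bodies. Python 3.11.15 with NumPy, pandas, SciPy and pysam was used.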

Additional observations from a re-analysis of the deposited data

Results flagged for a closer look

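The number of POU2AF1 regions changed in opposite directions in the 2 myeloma lines at a pair of members. In the IRF4 window the change, AU-15330 minus DMSO, was -3 in MM1.S (4 against 7 regions) and 1 in NCI-H929 (5 against 4 regions). In the IRF7 window it was 1 in MM1.S (2 against 1 region) and -2 in NCI-H929 (0 against 2 regions). The difference between lines was not tested, since each line has 1 library per treatment, and the counts are small. At IRF4 both lines kept the promoter site and each gained 2 regions. In NCI-H929 2 regions were also lost, and the promoter site was called as 3 regions with AU-15330 and 2 with DMSO. The rise by 1 in that line thus lies in how this site was divided, not in more sites. At IRF7 the extra MM1.S region, at -0.806 kb with a level of 5.66, lies beside the promoter region that MM1.S kept and NCI-H929 lost.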

How the results depend on the processing

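Of 169 values recomputed with another setting, 146 stayed close to the value reported (shares within its interval, counts of genes within 1.5 times) and 23 did not. For IRF4 in NCI-H929 the retained share of 2.00% rests on 1 region. It became 0% with the gene body only, 10 kb on each side, 50% of the region covered, a stricter threshold (−log10 q from 5 up, set for AU-15330 alone or for both treatments), and equal numbers of the strongest regions (0 of 2). HA-POU2F3 in NCI-H1048, also resting on 1 region, became 0% with the gene body only, 10 kb, and either form of the stricter threshold. POU2AF1 in MM1.S moved to 20.5% and 25% with the stricter threshold for AU-15330 alone and for both treatments, and to 66.7% with equal numbers of the strongest regions. That last setting gave 50% for POU2F3 and 57.1% for HA-POU2F3 in NCI-H526. The share of NCI-H929 IRF4 regions overlapped by POU2AF1 fell to 28.0% when summits had to lie within 200 bases. With AU-15330, members with an IRF4 region numbered 5 at 100 kb in MM1.S, and in NCI-H929 0 with the gene body, 10 kb or the stricter threshold, 2 at 50 kb and 4 at 100 kb, while those with a POU2AF1 region in NCI-H929 numbered 8 at 100 kb. The cause of these changes was not tested beyond the fewer or wider regions that each setting takes. RefSeq gene bodies, added after seeing the data, changed none of these values beyond the same limits, although IRF1 then had 6 IRF4 regions in MM1.S and 7 in NCI-H929 with DMSO.

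No paired analysis was possible because each condition has 1 library and the labels carry no replicate numbers. Leaving out a library was not possible either. Weak regions limit the rest. A region that is not called with AU-15330 can still be bound below the threshold, above all the IRF4 regions around its own gene other than the promoter.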

Other observations

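The protein-coding genes whose region counts over the 20 lists were most like those of IRF4 were ENSG00000283877, CT45A3, CD300E, NKD1 and FAM240A, with Pearson r between 0.916 and 0.942 on log2(count + 1). All of them lacked IRF4 regions with AU-15330 in both lines, where 36.5% (MM1.S) and 9.55% (NCI-H929) of all protein-coding genes had one. They had 0 to 2 regions over the 12 SCLC-P lists. Both traits follow in part from choosing genes by their counts over these same lists. The counts are small, mostly 0 to 2 per list, and the lists share cell lines and depth, so this is a description of absent regions in the main.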
